A study of Arabidopsis thaliana with 6 samples.

Results

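The 10 genes described here encode the transcription factors that switch plastids to greening and pass light signals to gene expression: the GATA factors GNC and CGA1, the GARP factors GLK1 and GLK2, the bZIP factor HY5, and the bHLH factors PIF1, PIF3, PIF4, PIF5 and PIF7. They were picked by locus from a table of 32833 genes, with earlier results of the same comparison known, in which GNC and PIF7 stood among the largest decreases. Their changes are therefore given as a description and not as evidence. RNA was sequenced from roots of wild-type Arabidopsis thaliana seedlings, ecotype Col-0, 3 days after germination. For the IAA group (3 libraries) seedlings stood for 1 h in liquid 1/2 MS medium to which the auxin IAA (indole-3-acetic acid) had been added at 1 µM. For the mock group (3 libraries) they stood in that medium alone. Each library came from a pool of about 100 roots, was depleted of ribosomal RNA and was read from both ends. The design text calls the libraries biological replicates but does not say whether the pools were grown and treated separately. If they were not, p-values between the groups measure a spread that may be technical.

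In green tissue GNC, CGA1, GLK1 and GLK2 promote chloroplast formation, the GLK factors by switching on nuclear genes for chlorophyll synthesis and light harvesting. HY5 promotes light responses and is destroyed in the dark through COP1. The PIF factors bind light-activated phytochromes, are in most cases degraded after it, and otherwise favour elongation growth and hold greening back. Roots normally stay pale: auxin from the shoot is known to restrain chlorophyll accumulation in Arabidopsis roots, whereas cytokinin and the factors HY5 and GLK2 promote it.

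The 250 bases before the annotated gene start are shown for the 3 genes of the group that passed the threshold, because these genes carry the calls. They are read 5′ to 3′ on the gene's strand from the RefSeq TAIR10.1 genome, at chr5:22991531-22991780 (minus strand) for GNC, chr5:24640766-24641015 (minus strand) for PIF7 and chr5:17798012-17798261 (plus strand) for GLK2. None of these windows overlaps another annotated gene. Capitals mark a match to 1 of 6 hexamers searched on both strands.
GNC: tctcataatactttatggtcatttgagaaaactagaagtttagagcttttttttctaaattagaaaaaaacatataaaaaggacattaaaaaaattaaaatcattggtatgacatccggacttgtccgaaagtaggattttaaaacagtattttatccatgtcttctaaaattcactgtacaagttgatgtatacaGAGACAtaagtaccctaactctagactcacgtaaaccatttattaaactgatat
PIF7: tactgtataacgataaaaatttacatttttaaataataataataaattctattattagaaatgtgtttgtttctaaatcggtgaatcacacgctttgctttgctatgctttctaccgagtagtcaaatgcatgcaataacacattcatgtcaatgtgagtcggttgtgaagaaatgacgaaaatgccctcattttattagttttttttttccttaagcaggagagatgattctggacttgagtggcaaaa
GLK2: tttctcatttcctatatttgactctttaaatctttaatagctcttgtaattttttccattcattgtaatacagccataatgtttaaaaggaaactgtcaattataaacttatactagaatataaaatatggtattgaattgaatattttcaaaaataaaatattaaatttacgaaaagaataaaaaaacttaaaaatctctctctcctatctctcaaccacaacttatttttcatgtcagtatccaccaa

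The capitals in the GNC window are the reverse complement of TGTCTC, the auxin response element, starting 54 bases before the gene. No match to any of the 6 hexamers lay in the PIF7 or GLK2 window. Among all 10 genes, TGTCTC was present for 2 (GNC and PIF3), against 10.9% of 27443 windows of protein-coding genes. The G-box CACGTG, a core bound by PIF factors and HY5, was present for 1 (PIF5, 165 bases before the gene), against 6.49%. The related CACATG was present for 1 (HY5), against 11.1%. GATAAG, a core bound by GATA factors, was present for 2 (GLK1 and PIF3), against 12.3%. The second auxin response element TGTCGG, present in 4.16% of windows, and CCAATC, a core linked to GLK factors and present in 10.2%, were found for 0 of the 10. These are matches of letters in 250 bases and not binding sites.

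Library totals lay between 20808439 and 20984444 counts, so 1 count was worth 0.0469 to 0.0492 CPM (counts per 1e+06 counts of the TMM-scaled library). The auxin treatment was visible in GH3.3, an auxin-conjugating enzyme gene, at 985 ± 66.8 CPM in IAA libraries and 5.25 ± 1.05 CPM in mock libraries (SD, n = 3 each). Root identity was checked with 10 markers, all 10 of which were detected in every library, with summed levels of 424 to 462 CPM in IAA libraries and 376 to 388 CPM in mock libraries. The libraries also held transcripts that mark green tissue. All 22 nuclear photosynthesis genes of a fixed list were detected in every library, 0 of them at 0 counts in any library. They took 0.0522%, 0.177% and 0.0633% of counts in IAA 1, IAA 2 and IAA 3, against 0.31%, 0.0597% and 0.48% in mock 1, mock 2 and mock 3. The groups overlapped, with mock 2 between the IAA libraries and mock 1 and mock 3 above all others. The means were 0.0973% ± 0.0688 in IAA libraries and 0.283% ± 0.212 in mock libraries (SD, n = 3 each, 2-sided exact permutation p = 0.3, smallest possible 0.1). In such bulk samples fewer cells of a type and less RNA per cell cannot be told apart.

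Of the 10 genes, 8 passed the low-count filter, and 3 of these 8 fell and 0 rose (edgeR quasi-likelihood test over 19778 genes, with calls at a Benjamini-Hochberg adjusted p under 0.05). Over all tested genes 0.991% fell and 3.24% rose, but since the group was chosen with this comparison known, nothing is read from its count. The 3 were GNC, PIF7 and GLK2. Of the 8 tested genes 7 had a negative log2 change and 1, HY5, a positive one, with a median of -1.14 against -0.01 over all tested genes. In 4 of the 8 the IAA libraries lay below all mock libraries, which 9.83% of all tested genes did, and in 0 above them, which 12.3% did. GNC and PIF7, with at most 8 and 5 counts in any IAA library, passed the low-count filter through the mock libraries alone. For these genes the lack of overlap and the direction of a call were fixed by the filter and are no finding. With DESeq2, 5 of the 10 fell and 0 rose, against 2.15% and 4.22% of the genes it tested.

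**Figure D1:**
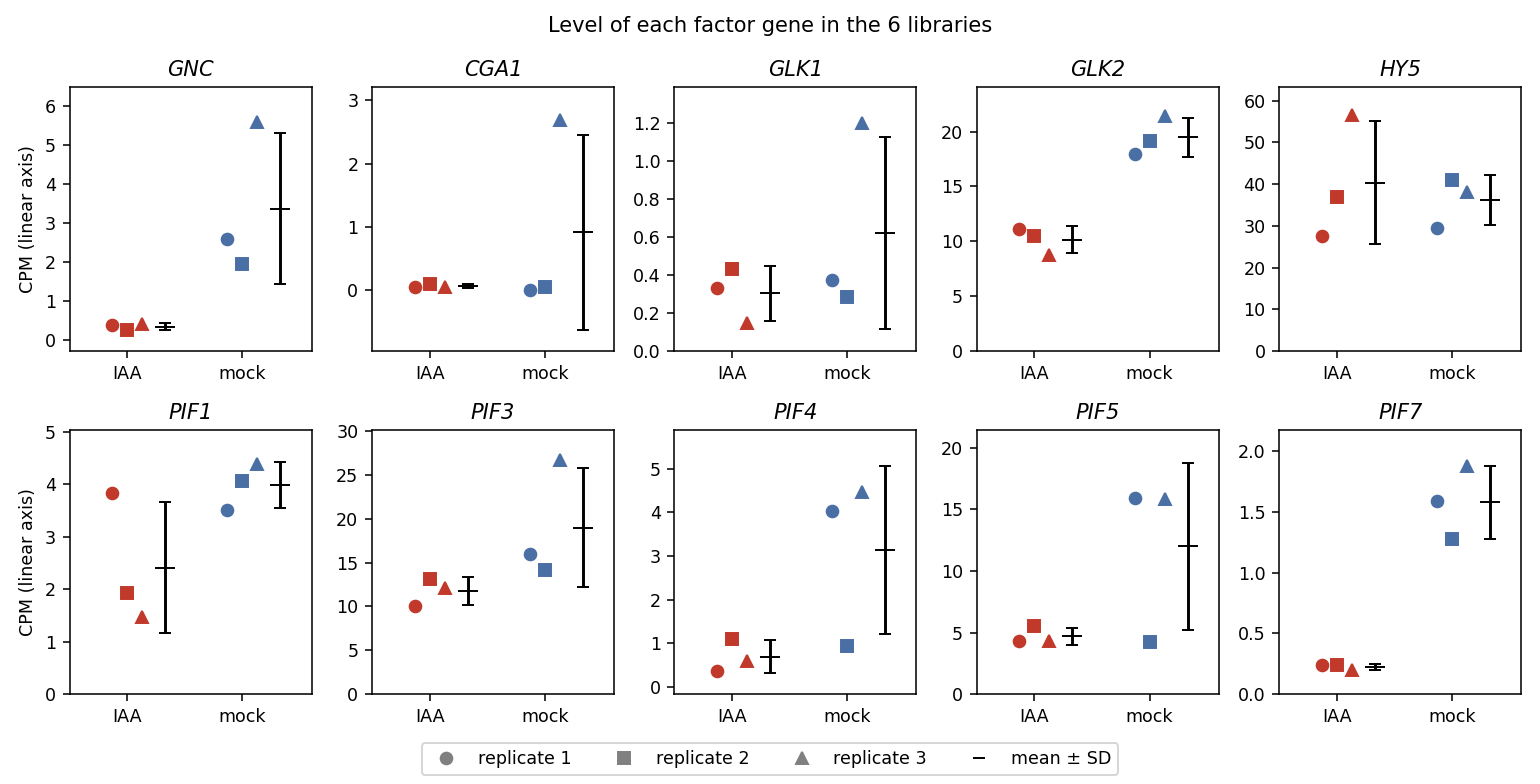
CPM of each of the 10 genes in IAA libraries (left, red) and mock libraries (right, blue), 1 symbol shape per replicate number, with the group mean and SD as bars, on linear axes that differ between panels. GNC, PIF7, GLK2 and PIF3 have no overlap between groups, while the mock 2 square of PIF4 and PIF5 lies with the IAA libraries.

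GNC promotes chlorophyll accumulation and answers to nitrate and cytokinin. It lies on chromosome 5 from 22989216 to 22991530 in TAIR10.1 (AT5G56860). GNC had 8, 5 and 8 counts in the IAA libraries, against 55, 41 and 116 in the mock libraries. In CPM these were 0.378, 0.242 and 0.393 with IAA, against 2.58, 1.94 and 5.58 in mock. All 3 IAA libraries were low, at counts too small to judge their spread. All 3 mock libraries lay above them, mock 3 the highest. The means were 0.338 ± 0.0836 CPM with IAA and 3.37 ± 1.95 CPM in mock (SD, n = 3 each), a log2 change of -3.29 (SE 0.50), or 9.80-fold lower with IAA. The call was lost without IAA 2 (log2 change -3.10) and held without each other library.

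CGA1 (AT4G26150), the closest relative of GNC, is induced by cytokinin. It was almost silent, with 1, 2 and 1 counts in IAA libraries against 0, 1 and 56 in mock libraries. The mock counts came nearly all from mock 3, the library with the highest photosynthesis share. The 0 counts in mock 1 allow up to 0.141 CPM (3 counts, counting error only). CGA1 did not pass the filter. Fitted without it, CGA1 had a log2 change of -3.68 with an SE of 1.98 and was not called. The coding sequences of GNC and CGA1 were 77.5% identical over 1022 aligned bases, and their longest identical run was 25 bases, shorter than the reads of 100 bases.

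GLK2 (AT5G44190), known for driving chloroplast development and for its part in root greening, had the highest level per kb of the GATA and GARP factor genes. It lies on chromosome 5 from 17798262 to 17800926. GLK2 had 11.2, 10.5 and 8.76 CPM in the IAA libraries, against 17.9, 19.1 and 21.4 CPM in the mock libraries. The groups were tight and did not overlap. The means were 10.15 ± 1.24 CPM with IAA and 19.5 ± 1.78 CPM in mock (SD, n = 3 each), a log2 change of -0.94 (SE 0.14), or 1.92-fold lower with IAA. The call held without each library in turn.

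GLK1 (AT2G20570), the partner of GLK2 in leaves, had 7, 9 and 3 counts in IAA libraries and 8, 6 and 25 in mock libraries. The groups overlapped, and mock 3 again stood above the rest. GLK1 did not pass the filter. Fitted without it, GLK1 had a log2 change of -0.99 (SE 0.66) and was not called. Coding sequences of GLK1 and GLK2 were 67.5% identical.

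HY5 (AT5G11260), which promotes light responses in shoots and roots, had the highest level per kb of the 10 genes. It had 27.7, 37.0 and 56.6 CPM in the IAA libraries, against 29.5, 41.1 and 38.1 CPM in the mock libraries. The groups overlapped, with IAA 1 the lowest of the 6 libraries and IAA 3 the highest. The log2 change was 0.16 (SE 0.27), not called, and without IAA 3 it turned to -0.16.

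Among the PIF genes, PIF7 was the member that fell. Its product is known from shade responses and, unlike most PIF proteins, is stable in light. PIF7 (AT5G61270) lies on chromosome 5 from 24638491 to 24640765. It had 5, 5 and 4 counts in IAA libraries, against 34, 27 and 39 in mock libraries. In CPM these were 0.236, 0.242 and 0.197 with IAA, against 1.59, 1.27 and 1.88 in mock. The groups did not overlap. At 4 to 5 counts the small spread of the IAA libraries does not measure how well the level repeats. The means were 0.225 ± 0.0245 CPM with IAA and 1.58 ± 0.301 CPM in mock (SD, n = 3 each), a log2 change of -2.78 (SE 0.34), or 6.87-fold lower with IAA. The call held without each library in turn. The last 318 bases of the gene overlap AT5G61260 on the other strand, and the strand setting of the counting is not given in the sources used here. AT5G61260 had 11.1 ± 2.34 CPM in IAA libraries and 11.8 ± 2.27 CPM in mock libraries (SD, n = 3 each), a log2 change of -0.09 that was not called.

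PIF4 (AT2G43010) and PIF5 (AT3G59060) promote elongation growth in shade, and PIF4 also in warmth. PIF4 had 0.378, 1.11 and 0.59 CPM in the IAA libraries, against 4.03, 0.944 and 4.47 CPM in the mock libraries. PIF5 had 4.35, 5.51 and 4.28 CPM in the IAA libraries, against 15.9, 4.201 and 15.9 CPM in the mock libraries. For both genes mock 1 and mock 3 were high and mock 2 lay at the IAA level, so the groups overlapped. PIF4 had a log2 change of -2.18 (SE 0.65) and PIF5 of -1.35 (SE 0.48), and neither was called. Both became calls without mock 2, with log2 changes of -2.60 and -1.74. In the authors' deposited table, made with DESeq2, PIF4 and PIF5 have log2 changes of -2.18 and -1.35 with adjusted p of 0.0119 and 0.0274, below the threshold of 0.05 used here. The 2 coding sequences were 78.8% identical, the highest value among the 10 pairs of PIF genes, with a longest identical run of 23 bases.

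PIF3 (AT1G09530), which represses greening in the dark, had 10.02, 13.1 and 12.1 CPM in the IAA libraries, against 16.0, 14.2 and 26.7 CPM in the mock libraries. The groups did not overlap, though IAA 2 and mock 2 were close. Its log2 change was -0.69 (SE 0.25) and was not called.

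PIF1 (AT2G20180), a repressor of seed germination and of chlorophyll synthesis, had 3.83, 1.93 and 1.48 CPM in the IAA libraries, against 3.52, 4.06 and 4.38 CPM in the mock libraries. IAA 1 lay among the mock libraries. PIF1 had a log2 change of -0.72 (SE 0.35) and was not called. Without IAA 1 it was called, with a log2 change of -1.22.

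**Figure D2:**
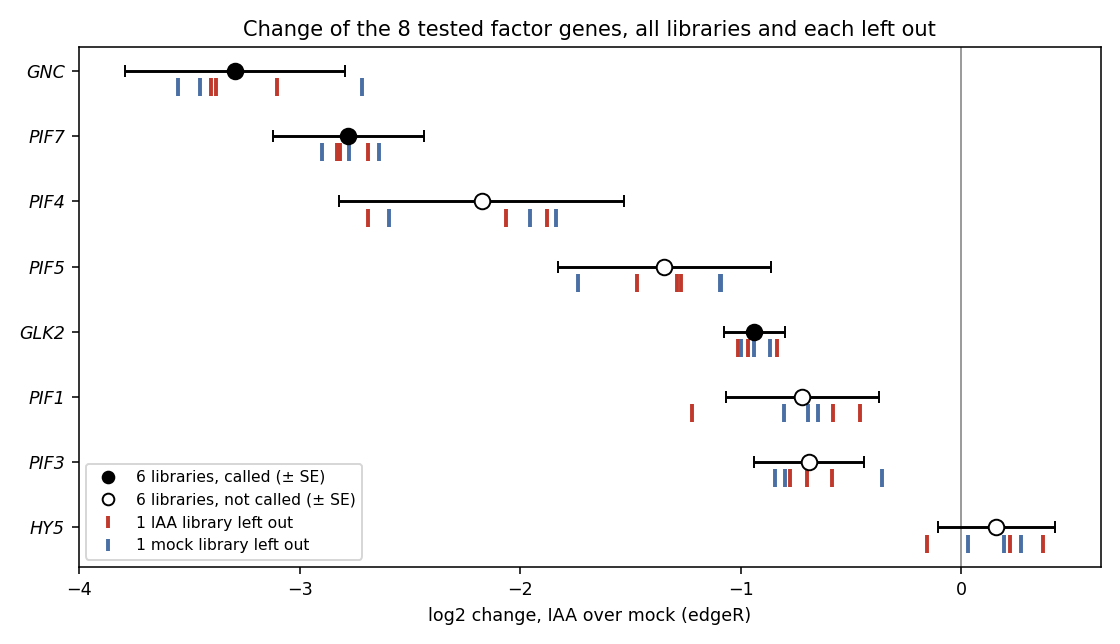
Log2 change, IAA over mock, of the 8 tested genes from edgeR with its SE (circles, filled where called), and the same value with 1 IAA library (red ticks) or 1 mock library (blue ticks) left out. PIF7 stays between -2.90 and -2.64 and GLK2 between -1.01 and -0.84, whereas PIF4 ranges from -2.69 to -1.84 and HY5 crosses 0.

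The levels of the 10 genes were set beside the photosynthesis share. The share of mock 2, 0.0597%, lay between those of IAA 1 and IAA 3. In mock 2 GNC, PIF7 and GLK2 were above every IAA library, at 1.94, 1.27 and 19.1 CPM. This follows from the lack of overlap between their groups and is no separate observation. PIF3 and PIF1, which were not called, were also above every IAA library in mock 2, at 14.2 and 4.06 CPM. HY5, GLK1 and CGA1 were not, at 41.1, 0.283 and 0.0472 CPM. In the same library PIF4 and PIF5 were at 0.944 and 4.201 CPM, within or just below the IAA range. For PIF4 this was above IAA 1 and IAA 3, at 0.378 and 0.59 CPM, and below IAA 2, at 1.11 CPM. With the photosynthesis share as a further term in the model, the log2 changes were -2.55 for GNC, -2.52 for PIF7 and -0.87 for GLK2. GNC and PIF7 remained called and GLK2 did not (edgeR adjusted p = 0.051). In that fit 0.693% of all genes fell and 1.95% rose. The log2 changes of PIF4, PIF5 and PIF3 in that fit were -0.93, -0.33 and -0.26, and none was called. With the log2 of the share as the term, an alternative added after seeing the data, GNC, PIF7 and GLK2 were all called (log2 changes -2.74, -2.56 and -0.90), against 0.678% of all genes that fell and 2.14% that rose. Whether a difference between genes in this respect exceeds the spread between libraries was not tested. The share was measured after treatment in the same libraries. With it in the model, green tissue and an effect of the treatment on the photosynthesis genes cannot be told apart.

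**Figure D3:**
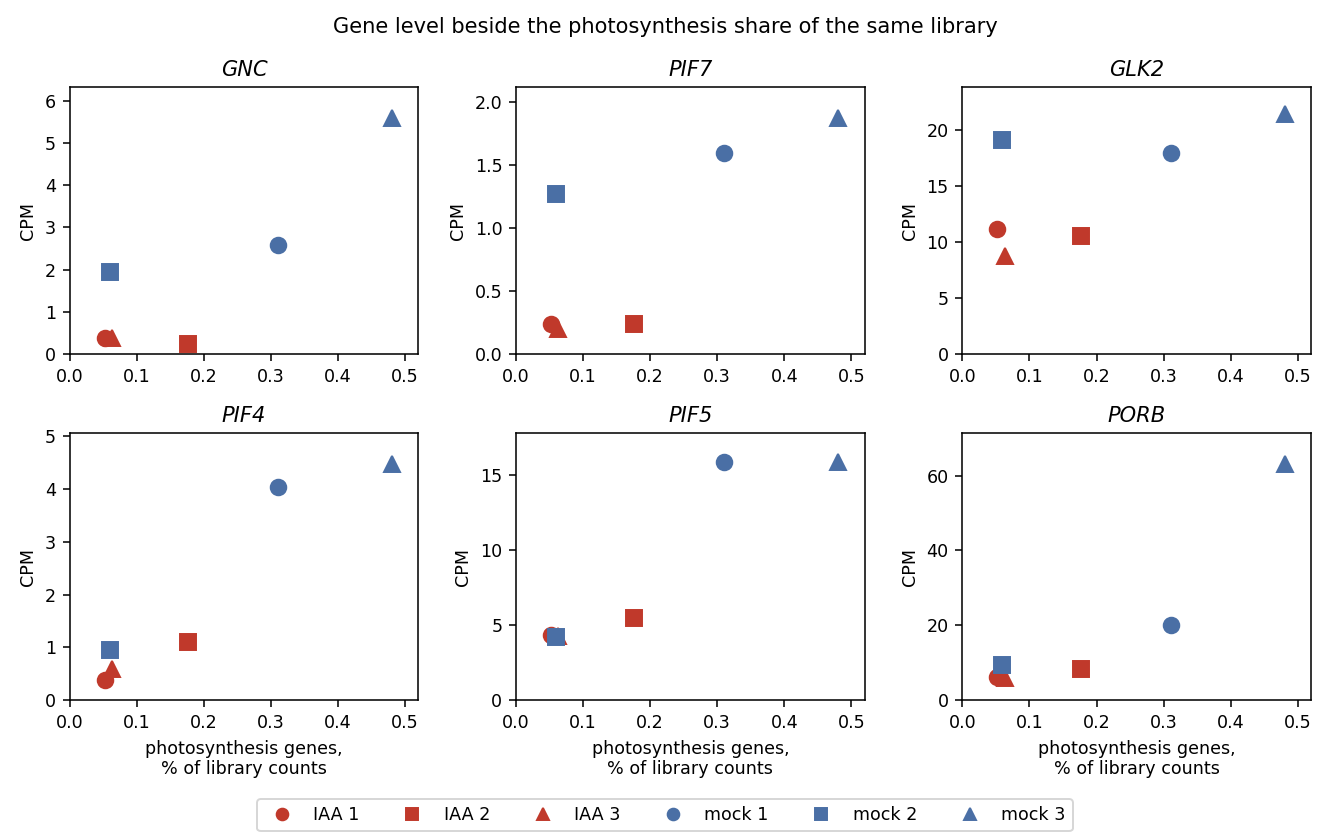
CPM of 5 of the genes and of the chlorophyll synthesis gene PORB against the share of library counts on 22 photosynthesis genes, 1 point per library (IAA red, mock blue). At shares of 0.0522% to 0.0633% the mock 2 point lies above IAA 1 and IAA 3 for GNC, PIF7 and GLK2. For these genes that follows from the lack of overlap between their groups. For PIF5 the mock 2 point lies close to IAA 1 and IAA 3. For PIF4 it lies above IAA 1 and IAA 3 and below IAA 2.

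Levels of different genes were compared as CPM per kb of annotated exon. With IAA the order was HY5 (32.2 ± 11.7), GLK2 (5.86 ± 0.719), PIF3 (4.25 ± 0.573), PIF5 (1.84 ± 0.269), PIF1 (1.03 ± 0.532), PIF4 (0.267 ± 0.145), GNC (0.189 ± 0.0467), GLK1 (0.176 ± 0.084), PIF7 (0.115 ± 0.0125) and CGA1 (0.0394 ± 0.0171; SD, n = 3 each). Among neighbours in this order, PIF4 and GNC, GNC and GLK1, and GLK1 and PIF7 overlapped between libraries. In mock the order was HY5 (28.8 ± 4.78), GLK2 (11.2 ± 1.02), PIF3 (6.86 ± 2.45), PIF5 (4.68 ± 2.63), GNC (1.88 ± 1.09), PIF1 (1.70 ± 0.186), PIF4 (1.21 ± 0.741), PIF7 (0.81 ± 0.154), CGA1 (0.56 ± 0.945) and GLK1 (0.358 ± 0.293; SD, n = 3 each). Only HY5 and GLK2, and GLK2 and PIF3, did not overlap with their neighbour there. GNC stood at position 7 with IAA and at position 5 in mock, and the first 4 places were held by the same genes in both groups.

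**Figure D4:**
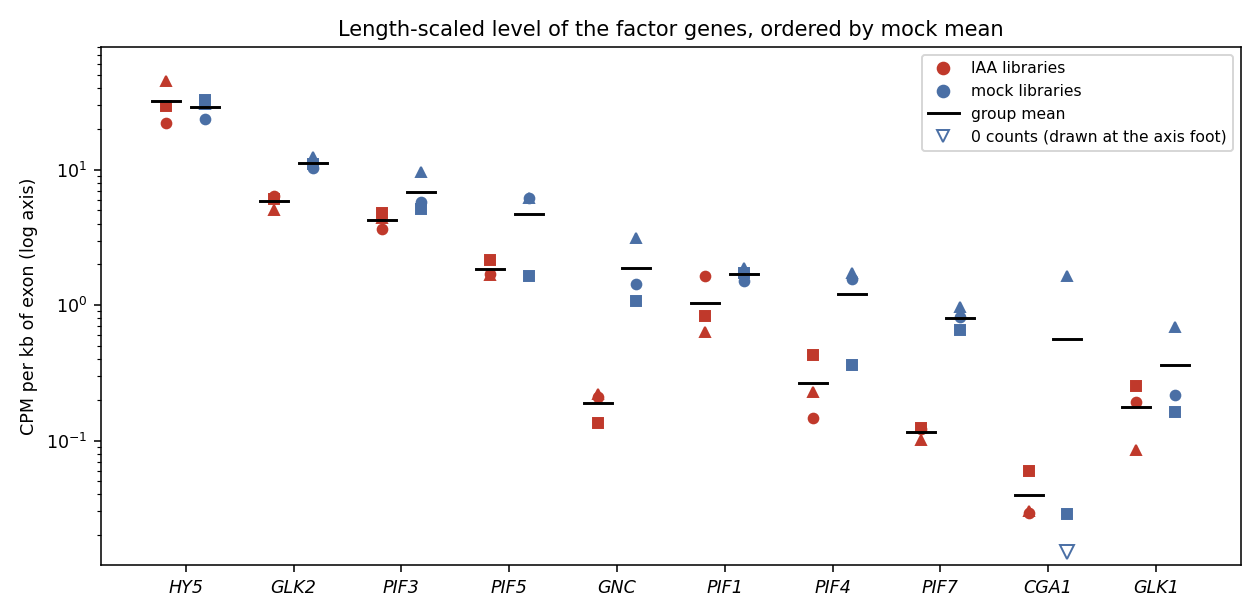
CPM per kb of exon (log axis) of the 10 genes in IAA libraries (left of each pair, red) and mock libraries (right, blue), ordered by mock mean, with symbol shape for the replicate number and a line for the group mean. HY5 lies above the other genes in both groups, and the open triangle marks the mock 1 library with 0 counts of CGA1.

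The genes with the profile most like each called member were sought among 19777 others. The measure was the root mean square difference of log2 CPM, with 0.1 added to each CPM, over the 6 libraries. Each profile was centred on its own mean. For GNC the nearest was PIF7 (difference 0.45), followed by GRP3S (AT2G05380, 0.47) and LCR85 (AT4G22210, 0.53). For PIF7 they were AT1G14120 (0.18), LCR85 (0.28) and AT5G08330 (0.29). For GLK2 they were LPA19 (AT1G05385, 0.10), AT3G20640 (0.11) and CHX20 (AT3G53720, 0.12). GNC and PIF7 were thus nearest to each other in 1 direction only. LCR85 had mean levels of 0.0321 CPM in IAA libraries and 0.521 CPM in mock libraries, so the added 0.1 weighs on its differences. The added 0.1 also weighs on those of GNC and PIF7, with means of 0.338 and 0.225 CPM in IAA libraries.

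The surrounding pathway genes were read from the same fit. Over all 19778 tested genes 1954 were higher and 1497 lower at an unadjusted edgeR p under 0.05. The calls were 3.24% higher and 0.991% lower. The lists were chosen with earlier results known, so nothing is read from their counts. Among 8 other B-class GATA factor genes, edgeR and DESeq2 each called 2 that rose and 0 that fell, and 3 had an unadjusted p under 0.05. GATA23, which acts in lateral root founder cells, had 17.2 ± 6.19 CPM in IAA libraries and 3.16 ± 0.50 CPM in mock libraries (SD, n = 3 each), a log2 change of 2.45 (SE 0.30, edgeR adjusted p = 0.00569). HANL1, a relative of the floral organ gene HANABA TARANU, had 7.72 ± 0.259 CPM with IAA and 3.88 ± 0.852 CPM in mock (log2 change 0.99, edgeR adjusted p = 0.0274). The GATA23 call held without each library in turn, and the HANL1 call in 2 of 6 such fits, being lost without IAA 2, IAA 3, mock 1 or mock 2 with the replicate number as a block (edgeR adjusted p = 0.053) and with the log2 photosynthesis share in the model (edgeR adjusted p = 0.0577). The list median was 0.38. GNC and GATA23, of the same class, thus moved in opposite directions.

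Of 6 tested relatives of the PIF factors and inhibitory bHLH factors (8 listed), 0 were called in edgeR, 1 had an unadjusted p under 0.05 and 1 was called in DESeq2, in both cases PAR1. PAR1, an inhibitor of PIF activity, had 14.9 ± 4.65 CPM in IAA libraries and 27.6 ± 4.47 CPM in mock libraries (SD, n = 3 each), with a log2 change of -0.89 (SE 0.23, edgeR adjusted p = 0.0853), and it was also called with the replicate block and without IAA 3. SPT, a bHLH factor of carpel and seedling growth, had a log2 change of 0.27. The list median was 0.02.

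Of 13 tested partners and regulators of HY5 (15 listed), 0 were called in edgeR, 1 had an unadjusted p under 0.05 and 0 were called in DESeq2. BBX21, a B-box activator of HY5, had 190 ± 25.4 CPM in IAA libraries and 193 ± 24.1 CPM in mock libraries (SD, n = 3 each). SPA1, a partner of COP1, had a log2 change of 0.31 and was called without IAA 1. The list median was 0.05.

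Of 14 photoreceptor and phytochrome import genes, 1 fell and 0 rose in edgeR and likewise in DESeq2, and 3 had an unadjusted p under 0.05. The call was the blue-light receptor gene PHOT1, with 26.9, 33.9 and 35.8 CPM in the IAA libraries, against 56.0, 56.6 and 63.8 CPM in the mock libraries. The groups did not overlap, and the log2 change was -0.87 (SE 0.13, edgeR adjusted p = 0.0101). The call held without each library in turn and was lost once the untransformed photosynthesis share entered the model (log2 change -0.79). With the log2 of the share, 1 gene of this list was still called lower. Over all alternatives the log2 change lay between -0.94 and -0.75. The list median was -0.02.

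Most chlorophyll synthesis and photosynthesis genes had lower mean levels with IAA. How many chlorophyll synthesis genes passed the threshold depended on the tool and the libraries. Of 16 tested chlorophyll synthesis genes (18 listed) 15 had a negative log2 change, with a median of -0.75, and 1 fell in edgeR. At an unadjusted p under 0.05 there were 7 in either direction, 1 of them, HEMA2, higher with IAA (log2 change 0.30). In DESeq2 3 fell, and likewise in edgeR without mock 2: CHLD, CHLI1, another magnesium chelatase subunit gene, and CHLM, a methyltransferase gene of the same pathway. In edgeR with all libraries neither CHLI1 (log2 change -0.94, adjusted p = 0.128) nor CHLM (log2 change -0.78, adjusted p = 0.0689) passed. The edgeR call was CHLD, a magnesium chelatase subunit gene, with 18.7 ± 0.875 CPM in IAA libraries and 31.8 ± 6.78 CPM in mock libraries (SD, n = 3 each, log2 change -0.77, SE 0.16, edgeR adjusted p = 0.0432). The CHLD call held in 1 of 6 fits with a library left out, being lost in all but the fit without mock 2, and it was also lost in limma-voom, with the replicate block and with either form of the photosynthesis share in the model. With mock 1, mock 3 and IAA 2 left out its log2 change was -0.44. All 22 photosynthesis genes had a negative log2 change, with a median of -1.31, and 0 were called in edgeR or DESeq2 or had an unadjusted p under 0.05. RBCS1A, a Rubisco small subunit gene, had 30.3, 297 and 41.9 CPM in the IAA libraries, against 741, 41.2 and 985 CPM in the mock libraries. LHCB1.3, a light-harvesting protein gene, had 108, 208 and 76.4 CPM in the IAA libraries, against 446, 79.1 and 812 CPM in the mock libraries. In both genes mock 2 lay within the IAA range. The part of green tissue in the lower levels of these lists was not tested.

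Of 10 genes known as targets of PIF factors or HY5, 2 rose and 1 fell in edgeR, 7 had an unadjusted p under 0.05, and 4 rose and 2 fell in DESeq2. The 3 further DESeq2 calls were ATHB2, a shade-raised homeodomain factor gene, ELIP1, an early light-induced protein gene, and YUC8, an auxin synthesis gene. None of these passed in edgeR, where ATHB2 had a log2 change of 0.62, ELIP1 of 1.37 and YUC8 of -0.99. The Aux/IAA repressor genes IAA29 and IAA19 rose 20.4-fold and 21.1-fold, IAA29 having 20.1 ± 8.04 CPM in IAA libraries and 0.978 ± 0.14 CPM in mock libraries (SD, n = 3 each). Both are also known as auxin-raised genes. XTR7, a xyloglucan endotransglucosylase gene, had 54.9 ± 6.36 CPM with IAA and 90.8 ± 11.2 CPM in mock (log2 change -0.73, SE 0.13, edgeR adjusted p = 0.0224). The XTR7 call held in 2 of 6 fits with a library left out and was lost without IAA 2, IAA 3, mock 2 or mock 3. It was also lost with the replicate block and with the untransformed photosynthesis share in the model. With the log2 of the share, 1 gene of this list was still called lower. The list median was 0.74. Of the 10 root markers 1 rose in edgeR, 2 rose in DESeq2 (WOX5 and SCR) and 3 had an unadjusted p under 0.05. Their median log2 change was 0.28, and 9 of the 10 had a positive one. The edgeR call was WOX5, a gene of the quiescent centre, with a log2 change of 0.93, and the call was lost without IAA 2, IAA 3, mock 1 or mock 2, with the replicate block and with either form of the share.

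**Figure D5:**
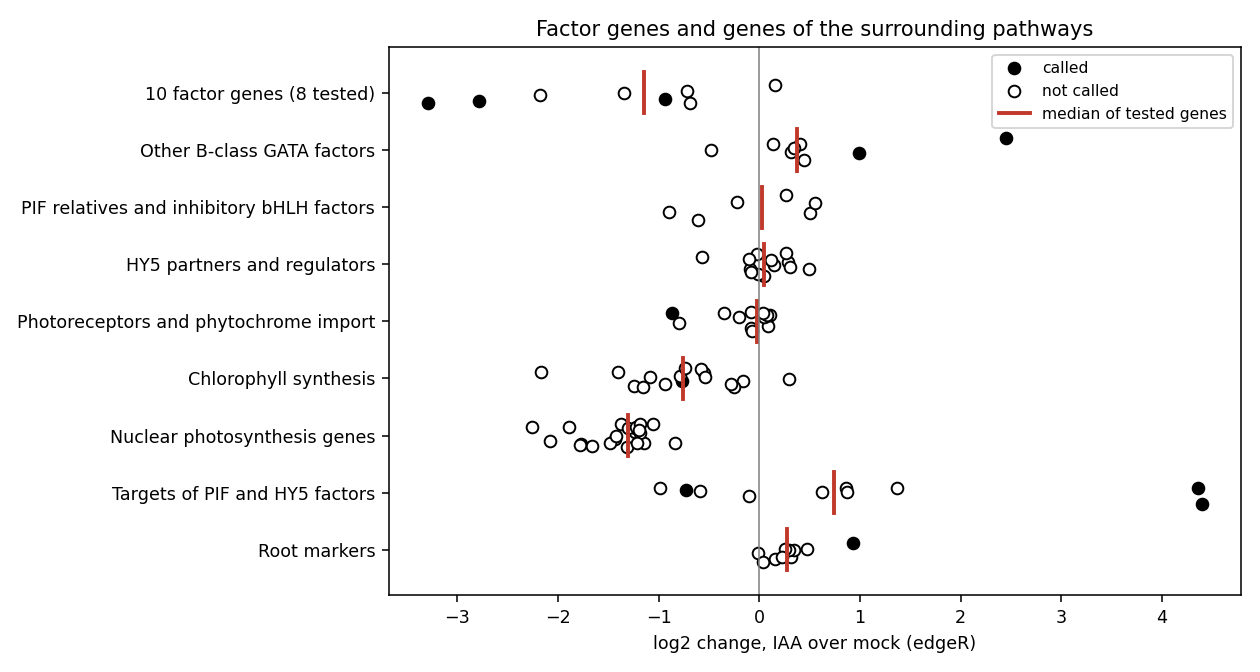
Log2 change, IAA over mock, of the tested genes of the 10-gene group and of 8 related lists, 1 circle per gene (filled where called), with the median as a red line and vertical scatter only for legibility. The 10-gene group (median -1.14), chlorophyll synthesis (-0.75) and photosynthesis genes (-1.31) lie left of 0, while the photoreceptors and the partners of HY5 centre near 0.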

How the data were processed

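The authors deposited raw read counts per gene for 6 root libraries. The submitters' processing notes name build TAIR10, the aligner STAR 2.5.2b, DESeq2 1.26.0, SAMtools and FastQC. How reads were counted, and with which strand setting, is not given in the sources used here. Each library was sequenced in technical runs, and the deposited table has 1 column per library. The authors' deposited table holds a mean normalized signal, a log2 fold change with its SE, a Wald score, and a p-value with its adjusted p-value. A DESeq2 1.42.0 rerun matched its log2 values within 1e-06 for all 24598 genes.

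Counts were tested with edgeR 4.0.16 in R 4.3.3 (quasi-likelihood, robust, TMM, filterByExpr, group as the only term, Benjamini-Hochberg adjusted p under 0.05 over 19778 genes). SE is the absolute log2 change divided by the square root of F. CPM is per 1e+06 effective counts. The script was tested on simulated data. Alternatives also used limma-voom 3.58.1, other scalings and filters, the replicate number, the photosynthesis share, a 2-fold minimum and left-out libraries.

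The members and lists were chosen with earlier results of these data known. Named were all members, up to 4 called genes per list (else the 2 most abundant), GH3.3, IAA19, and the 3 most similar profiles per called member. PORB in a plot, HEMA2, and AT5G61260, which overlaps PIF7, were chosen after their values were seen. So were the list genes called in DESeq2 or without mock 2 but not in edgeR. Positions, exon lengths and sequences come from RefSeq TAIR10.1, matched by locus for 10 of 10 genes. Coding sequences were aligned with Biopython 1.88. A planned comparison of proteins was not made.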

Additional observations from a re-analysis of the deposited data

How the results depend on the processing

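Over 17 alternatives PIF7 was called in 16, GNC in 15 and GLK2 in 14, all with a negative log2 change (PIF7 -2.90 to -2.52, GNC -3.55 to -2.31, GLK2 -1.01 to -0.84). PIF7 lost its call in the fit without mock 1, mock 3 and IAA 2, GNC in that fit and without IAA 2, and GLK2 in that fit, at a minimum log2 change of 1 and with the photosynthesis share in the model. Members that fell numbered 2 to 5 with each library left out, 5 in DESeq2 and 0 without mock 1, mock 3 and IAA 2, and 0 rose in any setting. That last fit, added after seeing the data, leaves 1 mock library assumed to vary like the IAA libraries. With 1 mock library, its lack of calls says nothing about the members. The log2 changes in it were -2.52 for PIF7, -2.31 for GNC, -0.96 for PIF4, -0.94 for GLK2 and 0.036 for PIF5. HY5 lay between -0.16, without IAA 3, and 0.37, without IAA 1. Genes called higher and lower numbered 1089 and 555 in DESeq2, 386 higher with the photosynthesis share in the model, 423 higher with its log2, and 381 and 92 at a minimum log2 change of 1. With each library left out, 260 to 839 were higher and 47 to 433 lower. The causes of these shifts were not tested, except that a minimum change can only remove calls. Leaving out IAA 1 gave more calls in both directions, and leaving out mock 3 more lower ones (248). The replicate numbers were not taken as pairs, since the labels give no batch. Same-numbered libraries deviated from their group means with correlations of 0.12, -0.44 and 0.22. Differently numbered ones did so with correlations of -0.37 to 0.32, so these values cannot decide whether the numbers are pairs. With the replicate block 462 genes were higher and 149 lower, and 3 members fell. The photosynthesis share differed by -0.298 to -0.0877 percentage points (IAA minus mock) with each library left out. Low counts, 5 to 8 for GNC and 4 to 5 for PIF7 in the IAA libraries, limit the precision of their levels.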
